A study of Danio rerio with 18 samples.

Results

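The genes tie1 (ENSDARG00000004105), tek (ENSDARG00000028663) and ptprb (ENSDARG00000076624) encode the Tie receptor tyrosine kinases and the receptor phosphatase that acts on them. They were taken by their Ensembl identifiers as 3 of the 25193 genes counted in zebrafish embryos. That rule uses no measured value, but the genes were chosen with earlier results of these data known. All 3 passed the filter on low counts in every comparison. All embryos were pooled, positive for a transgene and 24 hours post fertilization (hpf) old. AngioTag IP is immunoprecipitated RNA from the AngioTag line, pulled down with an antibody to the HA epitope on tagged ribosomes (translating ribosome affinity purification), and AngioTag input is the RNA of the whole AngioTag embryos before the pulldown. FACS sorted holds the RNA of endothelial cells that were positive for GFP and taken from AngioTag embryos with a cell sorter (FACS). Its counterpart, FACS total, is total RNA that the labels also assign to the AngioTag line. RiboTag IP and RiboTag input are the pulldown and the input of the RiboTag line, which the study used for the translatome of the whole embryo. Each of the 6 groups had 3 libraries. The labels name no promoter. From knowledge of the study, kdrl regulatory sequence drives the AngioTag transgene, so the tag follows the activity of a gene that is also used here as a marker.

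Tek, also called Tie2, is the receptor of the angiopoietins on endothelial cells. Angiopoietin 1 activates it, and angiopoietin 2 activates or blocks it depending on the vessel. Tie1 binds angiopoietins poorly, pairs with Tek at the cell surface and modulates its signal. Ptprb, known in mammals as VE-PTP, removes phosphate from Tek and from VE-cadherin (cdh5) and so holds back Tie signalling and junction remodelling. In mice the activated pathway runs through PI3 kinase and Akt, which keeps the transcription factor Foxo1 out of the nucleus, and mice without Tie1, Tek or Ptprb die before or around birth with defects of the vessels or the heart.

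The shallowest library held 18.3 M (mega) counts and the deepest 49.5 M. Across the 54 values of the 3 genes, raw counts ran from 95 for ptprb in RiboTag IP sample 2 to 44184 for tie1 in FACS sorted sample 1. The summed level of 9 endothelial markers (kdrl, cdh5, egfl7, clec14a, she, sox18, ERG, ESAM and FLI1) was 3100 to 5330 CPM (counts relative to the library total) in AngioTag IP and 5480 to 7270 CPM in FACS sorted, against 139 to 197 CPM over the other 4 groups. None of the 9 was at 0 throughout a group. Pulldown and sorted libraries also held blood cell markers: the sum of 6 myeloid markers was 430 to 1050 CPM in AngioTag IP and 702 to 1730 CPM in FACS sorted, against 21.5 to 58.5 CPM over the other 4 groups. The sum of 10 erythroid markers was 2460 to 7370 CPM in AngioTag IP and 4630 to 24100 CPM in FACS sorted. Over the other 4 groups it was 530 to 4860 CPM, so these ranges overlapped. For 7 blood progenitor markers the sum was 215 to 346 CPM in AngioTag IP and 395 to 1060 CPM in FACS sorted, against 61.8 to 93.3 CPM. The transcript zgc:158463 took 15.3% of the counts of FACS sorted sample 2 and 4.19% of AngioTag IP sample 1, and at most 1.11% elsewhere. Mitochondrially encoded genes took 0.108 to 0.288% of the counts of the 6 pulldown libraries and 2.08 to 4.47% of the others. In bulk RNA, fewer cells of a type and less RNA per cell cannot be told apart.

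Levels are given as CPM, with TMM factors computed on the 18 libraries together. They are not divided by gene length, so they compare groups within a gene and not one gene with another.

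tie1, the receptor without a classical high-affinity ligand, reached its highest level in sorted cells. It had 1035, 662.9 and 947 CPM in FACS sorted samples 1, 2 and 3, against 15.28, 14.4 and 27.99 CPM in FACS total. In AngioTag IP it had 123.2, 87.1 and 137.5 CPM, against 5.411, 5.867 and 6.941 CPM in AngioTag input. Both endothelial groups lay above every whole-embryo library, and the lowest sorted library lay above the highest AngioTag IP library. RiboTag IP had 4.844, 8.403 and 9.045 CPM, against 8.708, 10.59 and 8.757 CPM in RiboTag input, and these groups overlapped. The order of the means was FACS sorted (881.8 ± 195, SD, n = 3), AngioTag IP (115.9 ± 26), FACS total (19.22 ± 7.61), RiboTag input (9.35 ± 1.07), RiboTag IP (7.431 ± 2.26) and AngioTag input (6.073 ± 0.785). Among these neighbours, RiboTag input overlapped RiboTag IP, and RiboTag IP overlapped AngioTag input.

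tek, the angiopoietin receptor, was about as high in the AngioTag pulldown as in sorted cells. It had 209.2, 124.9 and 194.7 CPM in AngioTag IP, against 7.392, 6.014 and 5.918 CPM in AngioTag input. FACS sorted had 204.9, 172.9 and 113.4 CPM, against 4.672, 3.98 and 4.375 CPM in FACS total. The ranges of AngioTag IP and FACS sorted overlapped, and both lay above all 12 other libraries. RiboTag IP had 12.81, 13.54 and 19.94 CPM, against 7.013, 7.046 and 7.611 CPM in RiboTag input, so each RiboTag pulldown lay above each RiboTag input. The means ran from AngioTag IP (176.3 ± 45, SD, n = 3) through FACS sorted (163.7 ± 46.4), RiboTag IP (15.43 ± 3.93), RiboTag input (7.223 ± 0.336) and AngioTag input (6.441 ± 0.825) to FACS total (4.343 ± 0.347). Besides the first pair, only RiboTag input and AngioTag input overlapped among neighbours in this order.

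ptprb, the phosphatase, followed tie1 in being higher in sorted cells than in the pulldown. It had 32.99, 42.32 and 60.52 CPM in AngioTag IP, against 3.312, 4.865 and 4.359 CPM in AngioTag input. FACS sorted had 173.6, 163.9 and 112.4 CPM, against 4.436, 4.214 and 4.661 CPM in FACS total. All 3 sorted libraries lay above all 3 AngioTag IP libraries, which in turn lay above the 12 remaining libraries. RiboTag IP had 6.1, 2.464 and 4.29 CPM, against 5.292, 5.751 and 6.165 CPM in RiboTag input, with overlapping ranges. The means were 150 ± 32.9 CPM in FACS sorted, 45.28 ± 14 in AngioTag IP, 5.736 ± 0.437 in RiboTag input, 4.437 ± 0.223 in FACS total, 4.285 ± 1.82 in RiboTag IP and 4.179 ± 0.792 in AngioTag input (SD, n = 3). The last 3 of these overlapped with their neighbours.

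**Figure D1:**
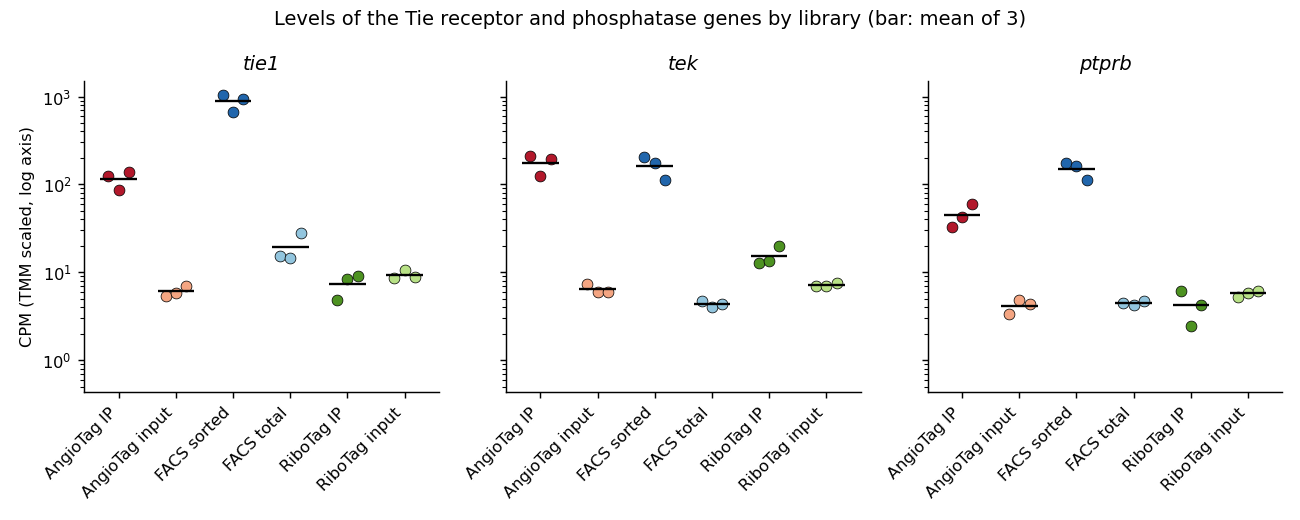
Level of tie1, tek and ptprb in each of the 18 libraries, as CPM with TMM factors on a log axis, in 6 groups of 3, with points for libraries and bars for group means. AngioTag IP and FACS sorted stand above every other group for all 3 genes, and tek is the gene for which these 2 groups overlap.

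Each member was also placed among all 20517 genes with a level. In FACS sorted the mean level of tie1 exceeded that of 99.2% of genes, against 70.1% in FACS total, and in AngioTag IP 93.2%, against 51.2% in AngioTag input. For tek the share was 95.6% in AngioTag IP, against 52.1% in AngioTag input, and 95.2% in FACS sorted, against 42.6% in FACS total. ptprb exceeded 82.9% of genes in AngioTag IP, against 45.8% in AngioTag input, and 94.6% in FACS sorted, against 43% in FACS total. These shares depend on gene length and describe position only.

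In the comparison of AngioTag IP with AngioTag input, which asks what the pulldown enriched, all 3 genes rose, where 12.1% of the 17913 genes tested were called higher and 11.9% lower. tek rose by 4.76 ± 0.26 on the log2 scale (SE; 27.1-fold; adjusted p = 2.42e-05), and tie1 by 4.24 ± 0.24 (18.9-fold; adjusted p = 2.42e-05), in edgeR's quasi-likelihood test with Benjamini-Hochberg adjustment. ptprb, the least enriched of them, rose by 3.42 ± 0.27 (10.7-fold; adjusted p = 8.16e-05). Counted from the largest rise, tek stood at place 50, tie1 at 93 and ptprb at 205. The 9 endothelial and the 6 myeloid markers rose as well, with medians of 4.22 and 3.32 on the log2 scale against -0.03 over all genes tested. Blood progenitor markers rose in 5 of 6 cases (median 2.09), and 4 of 10 erythroid ones rose and 1 fell (median 0.42). The part of blood cell RNA in the members' rise was not tested. Without AngioTag IP sample 1 the log2 rises were 4.62 for tek, 4.20 for tie1 and 3.61 for ptprb.

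Sorting gave larger log2 rises over its own whole-embryo libraries, at 5.10 to 5.53, than the pulldown did, at 3.42 to 4.76. The difference passed the threshold only for ptprb in the main edgeR contrast given below. On simulated counts that contrast recovered 19% of 100 genes given a log2 change of 1.5 in size, among 19797 genes. The data had 1636 calls, and with fewer changed genes the adjustment is stricter. That share is therefore not the chance of a call for tie1 or tek. The intervals of the contrast overlapped, at -2.43 to -0.89 for ptprb, -2.17 to -0.38 for tie1 and -1.26 to 0.31 for tek (edgeR). Because of this overlap, that tie1 and tek did not pass does not set them apart from ptprb. In FACS sorted against FACS total, where 13.9% of 19326 genes were called higher and 14.8% lower, tie1 rose by 5.53 ± 0.41 (46.1-fold; adjusted p = 6.8e-05), tek by 5.25 ± 0.32 (38.1-fold; adjusted p = 3.82e-05) and ptprb by 5.10 ± 0.29 (34.2-fold; adjusted p = 3.82e-05) in the same edgeR test. Their places from the largest rise were 59, 98 and 128. The median rise was 5.21 for the 9 endothelial and 4.66 for the 6 myeloid markers, against -0.11 over all genes tested. Blood progenitor markers rose in 6 of 7 cases (median 3.05), and 3 of 10 erythroid ones rose and 0 fell (median 2.00). Here too the part of blood cell RNA was not tested. Without FACS sorted sample 2, the library with 15.3% of its counts in zgc:158463, the rises were 5.68 for tie1 and 5.18 for tek, and ptprb still rose (adjusted p = 0.000143). FACS total held 1020 to 3510 CPM of 7 skeletal muscle markers, against 9520 to 12900 CPM in AngioTag input, so the whole-embryo libraries of the AngioTag line differed from each other. With AngioTag input as the reference instead, the sorted cells stood higher by 7.14 for tie1, 4.64 for tek and 5.13 for ptprb. On that reference the margins were less even, and tek rose no more than the 4.76 of the pulldown.

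**Figure D2:**
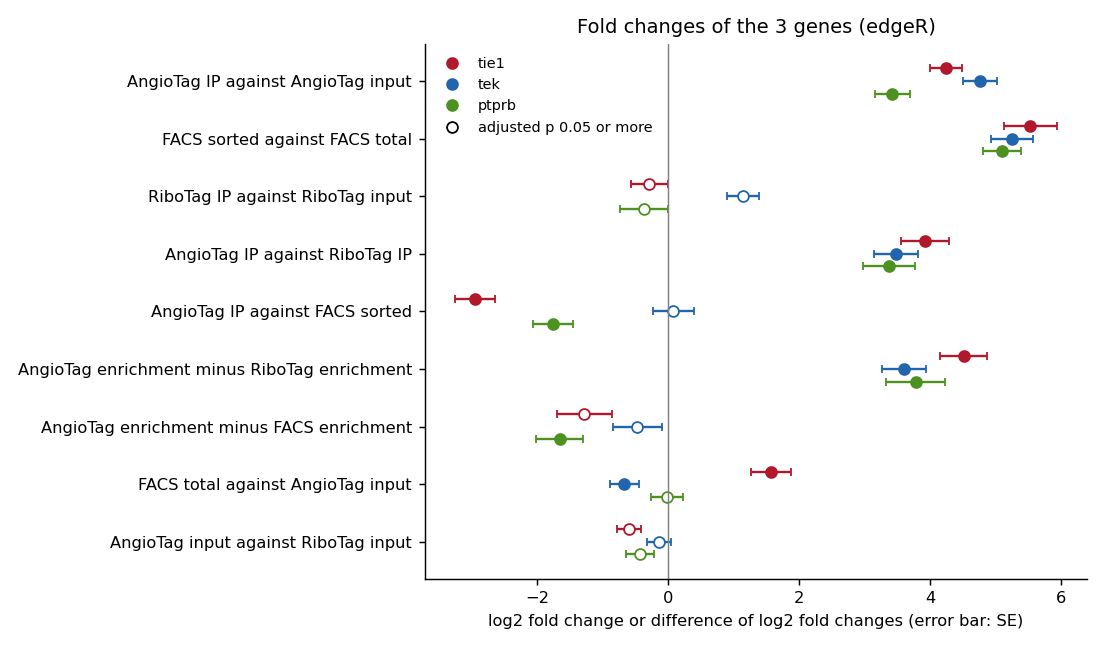
Log2 fold change of tie1, tek and ptprb in each comparison, with bars of 1 SE from edgeR and open points for an adjusted p of 0.05 or more; a positive value means higher in the group or enrichment named first. The 3 genes lie between 3.42 and 5.53 for AngioTag IP and FACS sorted against their own whole-embryo libraries, and in the RiboTag comparison tek lies at 1.14 and the other 2 below 0.

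In the RiboTag line the pulldown was set against the input of the same line, which asks how RNA on tagged ribosomes differs from all RNA. Of 18134 genes, 0.700% were called higher and 0.496% lower (217 genes, or 2574 with the replicate block, which pairs each pulldown with the input of its number). None of the 3 members passed the threshold in the main edgeR test. tek was nearest, at 1.14 ± 0.24 (95% confidence interval 0.58 to 1.69; unadjusted p = 0.00124; adjusted p = 0.0636), with all 3 pulldowns above all 3 inputs and place 310 from the largest rise. With the block edgeR gave 1.11 ± 0.20 and an adjusted p of 0.00586, past the threshold. tie1 stood at -0.29 ± 0.28 (interval -0.92 to 0.35; adjusted p = 0.626) and ptprb at -0.37 ± 0.36 (interval -1.20 to 0.45; adjusted p = 0.626). Over the tested alternatives the adjusted p of tek ran from 0.00282 with DESeq2 to 0.322, and it also passed with all 18 libraries in 1 fit and without RiboTag IP sample 2.

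The endothelial pulldown against the whole-embryo pulldown compares ribosome-bound RNA with ribosome-bound RNA. All 3 genes were higher in AngioTag IP than in RiboTag IP, where 9.86% of 17096 genes were called higher and 8.76% lower. The differences were 3.92 ± 0.36 for tie1 (adjusted p = 5.12e-05), 3.48 ± 0.34 for tek (adjusted p = 6.93e-05) and 3.37 ± 0.39 for ptprb (adjusted p = 0.000221; edgeR). The enrichment over input itself also differed between the lines, by 4.51 ± 0.36 for tie1, 3.60 ± 0.33 for tek and 3.78 ± 0.45 for ptprb (edgeR interaction contrast; adjusted p = 8.89e-06, 1.74e-05 and 0.000123 in that order; 4.46% of 19046 genes called higher and 3.53% lower, 1522 genes in all and 2979 with the block). These comparisons use the same AngioTag IP libraries and are not independent.

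AngioTag IP and FACS sorted are a ribosome pulldown and a cell sort from embryos of 1 line. tie1 was lower in AngioTag IP by a log2 change of -2.95 ± 0.31 (0.129 of the sorted level; adjusted p = 8.92e-05), and ptprb by -1.76 ± 0.30 (0.295 of the sorted level; adjusted p = 0.00121), in edgeR, where 23.8% of 18519 genes were called higher and 28.0% lower. For tek the change was 0.08 ± 0.31 (interval -0.61 to 0.78; adjusted p = 0.838). With that many genes called, a call by itself sets a gene apart from few others. Neither the 2 libraries rich in zgc:158463 nor any other single library decided these calls: leaving out each library in turn gave -3.12 to -2.75 for tie1, -1.98 to -1.58 for ptprb and -0.12 to 0.31 for tek. Among the other receptor tyrosine kinases, 24 of 38 were called lower in AngioTag IP and 6 higher (median -1.95). Among the other receptor tyrosine phosphatases, 10 of 23 were lower and 4 higher (median -0.62). Markers of other cell types moved in the same comparison. All 7 skeletal muscle markers were higher in AngioTag IP (median log2 change 4.11), as were 4 of 6 epidermal (2.32) and 4 of 7 neural markers (1.45), while 5 of 9 endothelial markers were lower and 1 higher (-1.19), against a median of -0.01 over all genes tested. The epidermal sum was 12400 to 20400 CPM in AngioTag IP, against 723 to 2960 CPM in FACS sorted, and the part of RNA of other cells in the members' differences was not tested.

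The methods were also compared by the enrichment over their own whole-embryo libraries. The AngioTag enrichment minus the FACS enrichment was -1.66 ± 0.36 for ptprb (adjusted p = 0.016), -1.28 ± 0.42 for tie1 (unadjusted p = 0.00838; adjusted p = 0.0716) and -0.47 ± 0.37 for tek (interval -1.26 to 0.31; adjusted p = 0.438), in edgeR's interaction contrast, where 3.00% of 20153 genes were called higher and 5.12% lower. Of the markers, 4 of 9 endothelial ones were lower in this contrast (median -0.92) and 5 of 7 of skeletal muscle higher (median 1.78), against 0.05 over all genes tested, and their part was not tested. Without AngioTag input sample 3 the adjusted p of ptprb was 0.0514. tie1 passed the threshold without FACS total sample 3 (-1.66, adjusted p = 0.018), without FACS sorted sample 2 (-1.45, adjusted p = 0.0458), with RLE scaling (adjusted p = 0.0468) and with DESeq2 (adjusted p = 0.015).

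The whole-embryo libraries were compared after their values had been seen. tie1 was higher in FACS total than in AngioTag input by 1.57 ± 0.31 (2.96-fold; edgeR adjusted p = 0.00426), where 25.2% of 19266 genes were called higher. FACS total sample 3, with 27.99 CPM, was the highest of them, and without it the difference was 1.17. This shift was not particular to tie1 among receptor kinases. Of the other receptor tyrosine kinases, 25 of 43 tested were called higher in FACS total and 1 lower (median 1.16 against -0.02 over all genes). Of the 9 endothelial markers, however, 1 was called higher and 2 lower (median 0.00). tek was lower in FACS total by -0.67 ± 0.22 (adjusted p = 0.0349; 21.2% of genes called lower), a call lost in 7 of the 14 alternatives with adjusted p-values up to 0.0969. For ptprb the difference was -0.02 ± 0.24 (interval -0.58 to 0.54; adjusted p = 0.952). Between AngioTag input and RiboTag input no member passed in edgeR: tie1 stood at -0.60 ± 0.18 (unadjusted p = 0.00647; adjusted p = 0.0976), ptprb at -0.43 ± 0.21 (adjusted p = 0.248) and tek at -0.14 ± 0.18 (adjusted p = 0.661), where 0.818% of 18458 genes were called higher and 0.845% lower. DESeq2 called tie1 in this comparison (adjusted p = 0.0412) and neither of the others.

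The ratio of one member to another within a library does not depend on how libraries are scaled. The log2 ratio of tek to tie1 counts was 0.76, 0.52 and 0.50 in AngioTag IP, against -2.34, -1.94 and -3.06 in FACS sorted. The 2 groups did not overlap and their means differed by 3.04, and the exact two-sided permutation test gave p = 0.1, the smallest that 3 against 3 libraries allows (adjusted p = 0.15 over 9 ratio comparisons). The same ratio was -1.71, -1.85 and -2.67 in FACS total, against 0.45, 0.04 and -0.23 in AngioTag input. Thus the low tek to tie1 ratio was shared by sorted cells and by the FACS whole-embryo libraries, which overlapped (difference -0.37, exact permutation p = 0.5).

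In the RiboTag line the tek to tie1 ratio was 1.40, 0.69 and 1.14 in the pulldown, against -0.31, -0.59 and -0.20 in the input. In both lines the pulldowns lay above their inputs without overlap: the differences were 1.44 in RiboTag and 0.51 in AngioTag (exact permutation p = 0.1 in each, the smallest possible). The log2 ratio of ptprb to tek moved the other way, at -2.66, -1.56 and -1.69 in AngioTag IP, against -1.15, -0.31 and -0.44 in AngioTag input. RiboTag IP had -1.07, -2.45 and -2.21, against -0.41, -0.29 and -0.30 in RiboTag input. Each pulldown group thus lay below its input (differences -1.34 and -1.58, exact permutation p = 0.1 in each), while FACS sorted, at -0.24, -0.08 and -0.01, lay near FACS total, at -0.07, 0.08 and 0.09, with overlapping ranges. The ratio of ptprb to tie1 averaged -1.37 ± 0.46 in AngioTag IP, against -0.55 ± 0.24 in AngioTag input and -2.56 ± 0.53 in FACS sorted (SD, n = 3). FACS total stood at -2.05 ± 0.47. In RiboTag this ratio overlapped between pulldown (-0.84 ± 1.07) and input (-0.70 ± 0.19), with a difference of -0.13 (exact permutation p = 0.8). The RiboTag ratios were examined after the values had been seen.

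**Figure D3:**
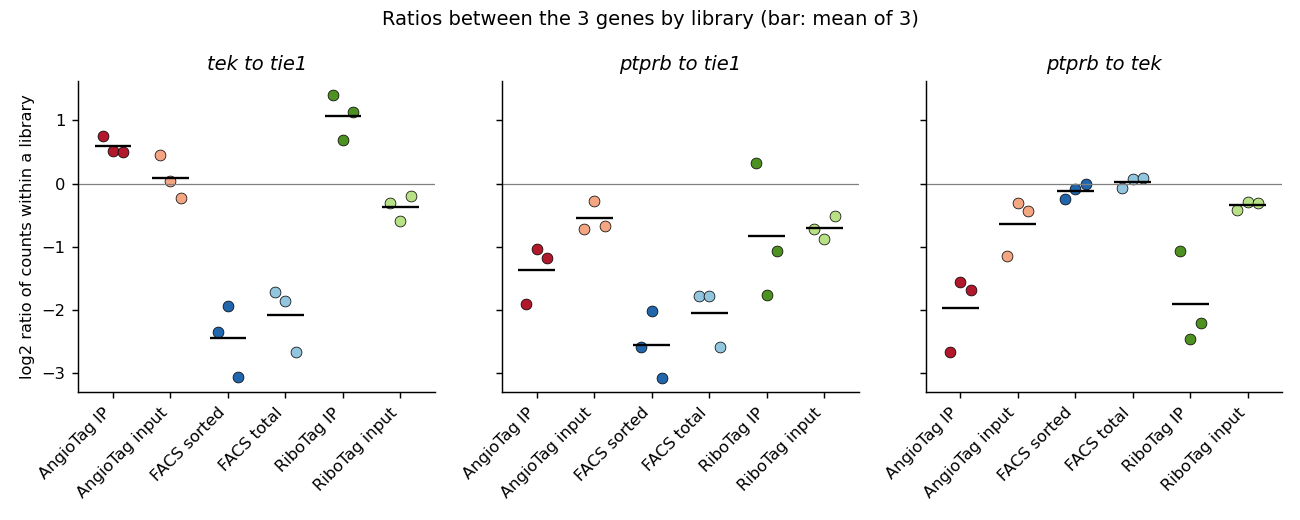
Log2 ratios of tek to tie1, ptprb to tie1 and ptprb to tek counts within each of the 18 libraries, by group, with group means. The tek to tie1 ratio is between 0.50 and 1.40 in the 6 pulldown libraries and -1.71 or lower in the 6 FACS libraries.

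Since the summed CPM of the 9 endothelial markers differed between the endothelial groups, each member was also set against that sum, a description added after the values were seen. tie1 amounted to 2.69, 2.81 and 2.58% of that sum in AngioTag IP, against 14.2, 11.5 and 17.3% in FACS sorted, with no overlap. The FACS whole-embryo libraries stood at 11.3 ± 3.17% (SD, n = 3), also above AngioTag input at 3.53 ± 0.47%, RiboTag IP at 4.17 ± 1.1% and RiboTag input at 5.47 ± 0.546%. On this measure tie1 separated the FACS groups from the others whether or not cells were sorted. tek made up 4.57, 4.04 and 3.65% of the sum in AngioTag IP, against 2.82, 3 and 2.07% in FACS sorted, and its highest share was 8.79 ± 2.42% in RiboTag IP, against 4.23 ± 0.169% in RiboTag input. ptprb made up 1.07 ± 0.328% in AngioTag IP, below the means of 2.42 to 3.35% in the other 5 groups. Its range of 0.72 to 1.37% in AngioTag IP overlapped that of RiboTag IP, at 1.25 to 3.8%.

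**Figure D4:**
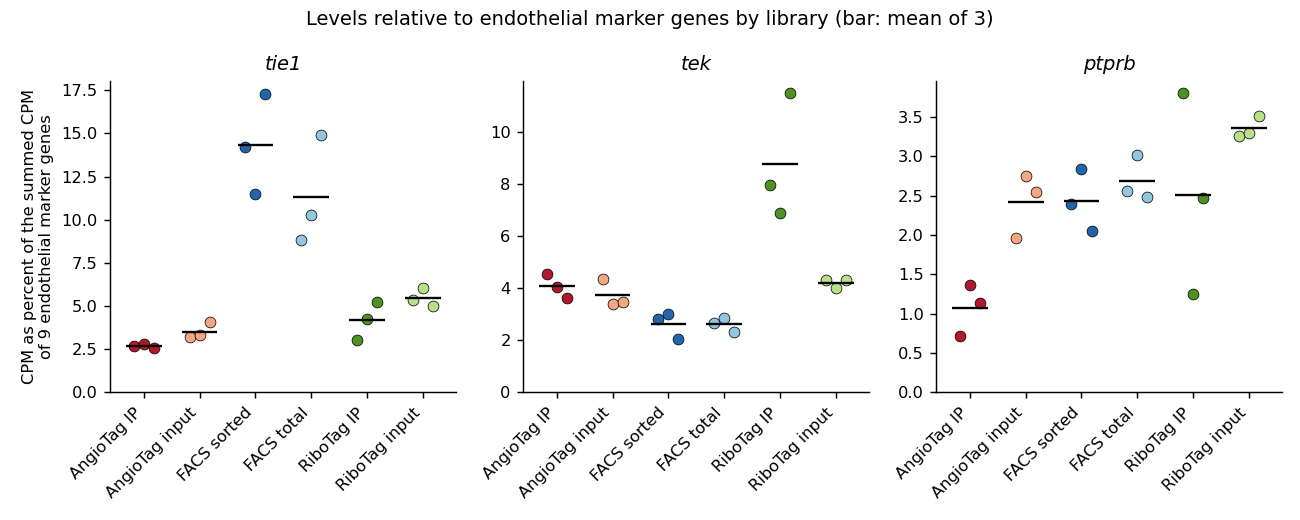
Level of tie1, tek and ptprb as a percentage of the summed CPM of 9 endothelial markers in each library, by group, with group means. tie1 is between 2.58 and 2.81% in AngioTag IP and between 11.5 and 17.3% in FACS sorted.

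Of 10819 genes with a symbol and a mean log2 CPM of at least 2, those whose log2 CPM followed each member most closely over the 18 libraries were found by Pearson's r. The libraries share groups, so r mostly describes the group pattern. tie1 was followed most closely by BTK (r = 0.986), PLEKHG5, DIPK2B, arap3 and stab1 (r = 0.984), with ptprb at place 75 (r = 0.958) and tek at 552 (r = 0.856). BTK is a cytoplasmic kinase known from blood cells, and stab1 is a scavenger receptor of endothelium and macrophages. tek was followed by mmrn2b (r = 0.993), an endothelial matrix protein, then by f13a1b, ERG, etsrp and HEY2 (r = 0.981). ERG and etsrp are ETS transcription factors of the endothelial lineage and HEY2 is a Notch target of arteries. For tek, ptprb stood at place 174 (r = 0.914) and tie1 at 348. ptprb was followed by EGFL7 (r = 0.988), bmp16, FLT4, SNX9 and stab2 (r = 0.978), with tie1 at place 71 and tek at 263. EGFL7 is a secreted protein of endothelium, and FLT4 is the receptor of Vegfc.

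In the AngioTag pulldown 0 of the 3 ligand genes tested rose or fell by edgeR or DESeq2, against 2 lower at an unadjusted p below 0.05, 1 lower with all 18 libraries in 1 fit and 2 lower without AngioTag IP sample 1. In sorted cells 1 of 5 rose and 2 fell. Of all genes tested, 12.1% were called higher and 11.9% lower in the pulldown, and 13.9% and 14.8% after sorting. ANGPT1, the activating ligand, had 4.814 ± 1 CPM in AngioTag IP, against 7.123 ± 1.05 CPM in AngioTag input, and 4.034 ± 1.46 CPM in FACS sorted, against 6.444 ± 0.668 CPM in FACS total (SD, n = 3). Neither difference passed (log2 -0.59 ± 0.25, adjusted p = 0.113, and -0.65 ± 0.36, adjusted p = 0.212; edgeR). ANGPT1 was highest in RiboTag IP, at 14.4 ± 1.12 CPM, against 9.193 ± 1.16 CPM in RiboTag input (0.69 ± 0.21, adjusted p = 0.141, and adjusted p = 0.0399 with the replicate block). It was lower in AngioTag IP than in RiboTag IP by a log2 change of -1.62 ± 0.31 (adjusted p = 0.00506).

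ANGPT2, the zebrafish ligand matched here to angpt2a, had 83, 37 and 45 counts in FACS sorted, against 4, 8 and 28 counts in FACS total, and 0, 4 and 6 counts in AngioTag IP, against 0, 1 and 3 counts in AngioTag input. It rose in sorted cells by 2.67 ± 0.75 (edgeR adjusted p = 0.0271), and leaving out FACS sorted sample 1 or 2 or FACS total sample 1 or 2 raised the adjusted p to between 0.0604 and 0.0966. It was too low to be tested in AngioTag IP against its input. angpt2b, its paralog, fell by 1.54 ± 0.41 in sorted cells (adjusted p = 0.0208) at 0.6706 ± 0.0998 CPM, against 1.974 ± 0.025 CPM in FACS total, and the call was lost when any of 4 single libraries was left out, at adjusted p-values of 0.0553 to 0.0852. In AngioTag IP angpt2b stood at -1.35 ± 0.55 (adjusted p = 0.107). ANGPT4 had 0 counts in all 3 AngioTag IP libraries, which at 3 counts per library allows up to 0.145 CPM, against 8, 3 and 5 counts in AngioTag input. SVEP1, a matrix protein reported as a ligand of Tie1, fell in sorted cells by 1.70 ± 0.45 (adjusted p = 0.0209; 0.0538 to 0.0929 without any of 4 single libraries) and stood at -0.46 ± 0.28 (adjusted p = 0.268) in the AngioTag pulldown.

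Among integrins that bind the Tie receptors or angiopoietins and the proteases that shed receptor ectodomains, 3 of 10 genes tested rose and 5 fell in AngioTag IP, with a median of -1.33 against -0.03 over all genes. In FACS sorted 4 of 11 rose and 1 fell, with a median of 0.31 against -0.11. Shares called over all genes were 12.1% higher and 11.9% lower in the pulldown, and 13.9% and 14.8% after sorting. Against RiboTag IP, 0 of 10 were higher in AngioTag IP and 4 lower (median -1.74), beside 9.86% and 8.76% of all genes. The AngioTag enrichment minus the RiboTag enrichment had 0 of 11 higher and 1 lower, beside 4.46% and 3.53%. With so few genes, 0 higher lies near these shares. ITGA5, the alpha chain of the fibronectin receptor, rose in both, by 1.38 ± 0.20 (adjusted p = 0.00179) in the pulldown and 2.18 ± 0.28 (adjusted p = 0.000962) in sorted cells. The protease adam10a likewise rose by 1.24 ± 0.20 (adjusted p = 0.00271) and 1.49 ± 0.30 (adjusted p = 0.0067), while its paralog adam10b fell by 1.86 ± 0.21 (adjusted p = 0.000537) in the pulldown and stood at -0.45 ± 0.37 (adjusted p = 0.399) in sorted cells. ITGAV fell by 1.78 ± 0.22 (adjusted p = 0.00085) in the pulldown and stood at 0.07 ± 0.31 (adjusted p = 0.887) after sorting. Of the beta chains, ITGB3 (ENSDARG00000056767) fell by 3.08 ± 0.52 in the pulldown and fell by 1.93 ± 0.38 in sorted cells, and the other gene under that symbol (ENSDARG00000045070) rose by 2.58 ± 0.45 in sorted cells (adjusted p = 0.00352). ITGB1 (ENSDARG00000071863) and another gene of that symbol (ENSDARG00000053232) fell in the pulldown. The call of the latter was lost without AngioTag IP sample 2 or 3 or AngioTag input sample 1 or 3 (edgeR adjusted p = 0.0591 to 0.0952). The protease ADAM17 (ENSDARG00000043213) rose in both comparisons, and upper-quartile scaling ended both calls (edgeR adjusted p = 0.0663 and 0.0594). Whether reads were split between genes that share a symbol was not tested.

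Of the intracellular adaptors and kinases of the pathway, 7 of 26 rose and 0 fell in AngioTag IP (median 0.20 against -0.03 over all genes), where 12.1% of all genes were called higher and 11.9% lower. In FACS sorted 9 of 27 rose and 3 fell (median 0.57 against -0.11), where the shares over all genes were 13.9% and 14.8%. In edgeR 1 gene fell in the pulldown at an unadjusted p below 0.05, DESeq2 and 5 other alternatives called 1, and without AngioTag IP sample 1 edgeR called 5. SOS1, which activates Ras, rose by 2.48 ± 0.23 (adjusted p = 0.000162) in the pulldown and by 2.50 ± 0.34 (adjusted p = 0.00113) in sorted cells. Both genes named NCK1, an adaptor to the actin skeleton, rose in the pulldown (1.96 and 1.48) and in sorted cells (2.84 and 2.11), and the PI3 kinase subunit PIK3CB rose by 1.04 ± 0.20 and 1.91 ± 0.25. dok2, the adaptor known to bind Tek in mammals, rose by 4.70 ± 0.51 in sorted cells (adjusted p = 0.000389) and was too low to be tested in the pulldown. ptpn11b rose by 4.14 ± 0.50 in sorted cells (adjusted p = 0.000659) and stood at 0.11 ± 0.72 (adjusted p = 0.929) in the pulldown. Neither AKT2 gene passed in either comparison. GRB14, PAK1 and tnip2 fell in sorted cells, and each of these calls was lost in some alternatives.

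Of the forkhead and Kruppel-like factors that act downstream, 2 of 6 rose in AngioTag IP and 4 of 7 in FACS sorted, and 0 fell in either, by edgeR or DESeq2, except 1 in the pulldown under upper-quartile scaling. The shares over all genes were 12.1% higher and 11.9% lower in the pulldown, and 13.9% and 14.8% after sorting. With so few genes, 0 falling lies near these shares. At an unadjusted p below 0.05, 1 was lower in AngioTag IP and 0 in FACS sorted. FOXO1 (ENSDARG00000099555), the factor that Akt restrains, rose by 2.34 ± 0.22 (adjusted p = 0.000196) and 2.89 ± 0.34 (adjusted p = 0.000551). klf2a, which responds to blood flow, rose by 2.28 ± 0.33 (adjusted p = 0.00194) in the pulldown and 3.82 ± 0.31 (adjusted p = 9.4e-05) in sorted cells.

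Of the junction partners of Ptprb, 7 of 8 rose in AngioTag IP, with a median of 2.94 against -0.03 over all genes, and 4 without AngioTag input sample 3. With the replicate block 6 rose and 1 fell, and CTNND1 (p120-catenin), which had risen by 2.67 ± 0.83 (adjusted p = 0.0459), stood at 1.64 ± 0.58 (adjusted p = 0.0643). In FACS sorted 6 of 8 rose, with a median of 4.15 against -0.11. Against RiboTag IP, 4 of 8 were higher in AngioTag IP and 1 lower (median 1.69 against -0.01). There 9.86% of all genes were called higher and 8.76% lower. The AngioTag enrichment minus the RiboTag enrichment also had 4 of 8 higher and 1 lower, where the shares were 4.46% and 3.53%. The list holds Vegf receptors and fgd5a beside junction proteins. Its genes cdh5 and kdrl are also among the 9 endothelial markers, so the list is not separate from them. The all-gene shares were 12.1% higher and 11.9% lower in the pulldown, and 13.9% and 14.8% after sorting. cdh5 encodes VE-cadherin, the adhesion protein that Ptprb binds, and rose by 4.71 ± 0.26 (adjusted p = 2.42e-05) in the pulldown and 5.64 ± 0.34 (adjusted p = 3.82e-05) in sorted cells. fgd5a, a Cdc42 exchange factor tied to Ptprb signalling in mammals, rose by 4.16 ± 0.25 and 5.52 ± 0.31. The Vegf receptor KDR rose by 3.13 ± 0.26 and 5.69 ± 0.35. One of the genes named JUP, plakoglobin (ENSDARG00000059067), rose by 2.75 ± 0.55 (adjusted p = 0.00816; 0.0605 without AngioTag input sample 3) and 3.16 ± 0.38 (adjusted p = 0.000658). The other JUP gene (ENSDARG00000070787) rose in the pulldown and did not pass in sorted cells. CTNNB1, beta-catenin, stood at -0.66 ± 0.24 (adjusted p = 0.0735) and -0.17 ± 0.25 (adjusted p = 0.669).

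**Figure D5:**
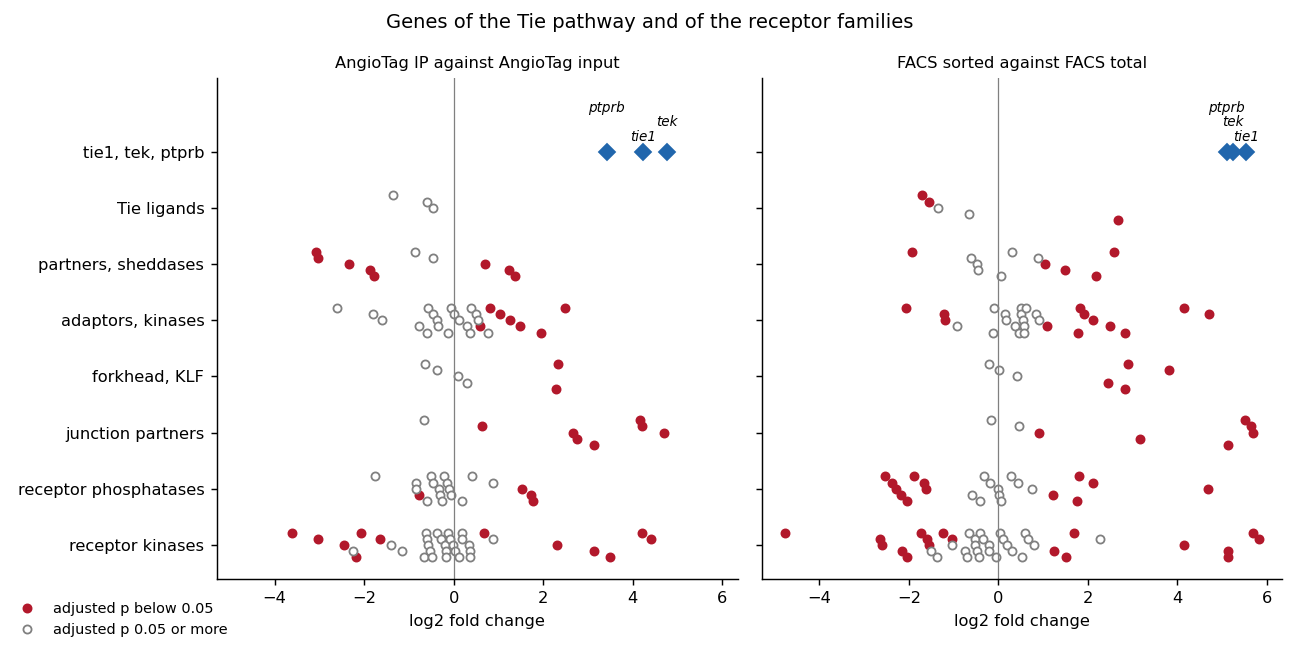
Log2 fold changes in AngioTag IP against AngioTag input and in FACS sorted against FACS total for genes of the Tie pathway and of the receptor families, grouped by role, with the 3 members as diamonds; filled points have an adjusted p below 0.05. The members and, from the list of junction partners of Ptprb, the genes cdh5, kdrl, fgd5a and KDR lie above 3 in both comparisons. The ligands, apart from ANGPT2 in sorted cells, lie below 0.

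Of the other receptor tyrosine phosphatases, 3 of 20 tested rose and 1 fell in AngioTag IP, and 5 of 23 rose and 8 fell in FACS sorted, with 3 rising without FACS total sample 1. Over all genes 12.1% were called higher and 11.9% lower in the pulldown, and 13.9% and 14.8% after sorting. PTPRE (ENSDARG00000015891) rose by 1.74 ± 0.28 and 2.12 ± 0.37, and PTPRG (ENSDARG00000045006) by 1.53 ± 0.21 and 1.80 ± 0.38. ptprc, the leukocyte phosphatase CD45, rose by 4.68 ± 0.53 in sorted cells (adjusted p = 0.000442) to 15.14, 17.52 and 21.68 CPM, against 0.9069, 1.015 and 0.2419 CPM in FACS total. In AngioTag IP ptprc rose by 1.78 ± 0.54 (adjusted p = 0.041; up to 0.174 over 6 alternatives that ended the call). PTPRU (ENSDARG00000092638) fell by 2.53 ± 0.34 in sorted cells.

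Of the other receptor tyrosine kinases, 6 of 37 rose and 6 fell in AngioTag IP, and 8 of 42 rose and 10 fell in FACS sorted, beside all-gene shares of 12.1% higher and 11.9% lower in the pulldown and 13.9% and 14.8% after sorting. The 6 that fell in the pulldown were 2 without AngioTag IP sample 3 or AngioTag input sample 1, and the 10 that fell after sorting were 4 without any 1 of 4 libraries (FACS sorted samples 1 and 3, FACS total samples 1 and 2). The medians were -0.18 and -0.39, against -0.03 and -0.11 over all genes tested. Those that rose in both were the Vegf receptors flt1 (4.41 ± 0.25 and 5.82 ± 0.52), FLT4 (3.49 ± 0.22 and 5.14 ± 0.29), KDR and kdrl, and csf1rb (2.30 ± 0.42 and 4.16 ± 0.69), a receptor known from myeloid cells. KDR and kdrl also stand in the junction list above. FGFR1 (ENSDARG00000011027) rose in the pulldown. That call was lost in some alternatives, such as upper-quartile scaling (0.47 ± 0.17, edgeR adjusted p = 0.0769). The receptor kinases that fell in the pulldown included DDR1, MET, musk and the other gene named FGFR1 (ENSDARG00000011190). In sorted cells musk and this FGFR1 gene fell too, as did ERBB4 (ENSDARG00000063207). Each of these calls was lost in some alternatives.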

How the data were processed

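Whole-embryo, pulldown and sorted-cell RNA of 18 libraries was sequenced from stranded libraries. Per the labels' protocols RNA was either poly(A) selected or depleted of ribosomal RNA, with no word on which library had which. The authors deposited 1 table of raw counts per Ensembl gene, whole numbers without normalization. The submitters' processing notes name STAR 2.4.2a, RSEM 1.2.22, DESeq2 and GRCz10, without their roles. The 3 members and all lists were chosen with earlier results of these data known.

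Counts were tested in R 4.3.3 with edgeR 4.0.16 (quasi-likelihood test, TMM, filterByExpr by group with minimum count 10 and minimum total 15), fitted on the compared groups over all genes. P-values were Benjamini-Hochberg adjusted over all genes tested, with a threshold of 0.05. SE is the log2 fold change over the root of its F statistic. DESeq2 1.42.0, other scalings, filters, a fit of all libraries, a replicate block and leaving out each library were alternatives. The script was tested on simulated counts. Within-library ratios used a pseudocount of 0.5.

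Of 25193 genes, 22548 (89.5%) had a symbol in an Ensembl name table, and 183 of 195 list entries matched, giving 191 genes. Symbols are printed as the table has them. The rule for naming list genes took the ligands. From each list it took up to 6 genes with the largest rise and up to 4 with the largest fall past the threshold. It was applied in AngioTag IP against its input and in FACS sorted against FACS total. The text names only part of the genes so taken. Named outside the rule, after their values were seen, were ITGAV, CTNNB1, AKT2 and JUP (ENSDARG00000070787). For each member the 5 genes of highest Pearson r were named.

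No 2 libraries of a group agreed within counting error (chi-square per degree of freedom 17.44 to 534.9). No source says whether samples came from separate pools of embryos, so p-values measure only the spread between these samples, which may be technical. Sample numbers were taken as pairs where deviations of same-numbered samples correlated above a limit of 0.1. The correlations were 0.32, 0.15 and 0.21 in AngioTag and 0.17, 0.57 and 0.41 in RiboTag, pulldown against input. AngioTag IP sample 2 correlated best with input sample 3. The limit was also met between the 2 pulldowns, which come from different lines (0.15, 0.17 and 0.14). Whether same-numbered samples share embryos was not tested. Intervals of fold changes come from edgeR and include the spread between libraries; the floor of 3 counts covers counting error only.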

Additional observations from a re-analysis of the deposited data

Results flagged for a closer look

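Enrichment over input differed between the AngioTag and RiboTag lines for all 3 genes by the edgeR interaction contrast. AngioTag enrichment minus RiboTag enrichment was 4.51 for tie1, 3.60 for tek and 3.78 for ptprb on the log2 scale, with adjusted p-values of 8.89e-06, 1.74e-05 and 0.000123.

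For ptprb the enrichment also differed between the pulldown and the sort: AngioTag enrichment minus FACS enrichment was -1.66 (adjusted p = 0.016), with all 3 AngioTag IP libraries above their inputs and all 3 sorted libraries above FACS total. The whole-embryo libraries stood at -0.02 ± 0.24 for ptprb (FACS total against AngioTag input, SE, adjusted p = 0.952), and the sorted cells stood higher by 5.10 over FACS total and by 5.13 over AngioTag input.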

How the results depend on the processing

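No member changed direction under any alternative that was run, apart from tek in AngioTag IP against FACS sorted and ptprb in FACS total against AngioTag input, which were not called and lay on both sides of 0 (-0.12 to 0.31 and -0.18 to 0.09). For tek in RiboTag, DESeq2 gave 1.14, all 18 libraries in 1 fit 1.09 and the replicate block 1.11, all past the threshold, and leaving out 1 library gave 0.90 to 1.24. For the AngioTag enrichment minus the FACS enrichment, tie1 passed at -1.44 with RLE scaling and at -1.44 with DESeq2, and ranged from -1.66 to -1.09 without 1 library, and ptprb from -1.91 to -1.49. For tek, FACS total against AngioTag input was not past the threshold with all 18 libraries (-0.57) or the replicate block (-0.67), and was -0.75 to -0.59 without 1 library. For tie1, AngioTag input against RiboTag input passed with DESeq2 (-0.59). The block changed no other call of a member. Same-numbered samples of the sort and FACS total (r = 0.32, 0.02 and 0.16) or of AngioTag input and RiboTag input did not meet the limit for pairs, so there they share only a number; the block gave 5125 genes in the sort.

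Counts of genes called moved more. RiboTag IP against its input had 217 in the main test, 1422 with DESeq2, 813 with all 18 libraries, 2574 with the block and 5 to 1878 without 1 library. AngioTag IP against RiboTag IP had 3183, 6025 with all 18 libraries and 1176 to 3146 without 1 library. AngioTag minus RiboTag enrichment had 1522, 2470 with DESeq2, 2979 with the block and 833 to 2127 without 1 library, and AngioTag minus FACS enrichment 1636, 3057 with DESeq2 and 502 to 1987. AngioTag input against RiboTag input had 307, 1593 with DESeq2, 562 with no low-count filter, 6 with all 18 libraries, 180 with the block and 15 to 702. Without 1 library the counts were 1721 to 6523 for AngioTag IP against input (4300), 3321 to 5293 for the sort (5546) and 5890 to 12369 for FACS total against AngioTag input (8923). The causes were not tested.

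With upper-quartile scaling the all-gene median went from -0.031 to -0.236 and the calls to 1461 higher and 3078 lower in AngioTag IP against input, from -0.106 to -0.312 and to 2199 and 3657 in the sort, and from -0.015 to -0.157 and to 1419 and 1989 between the pulldowns. RLE moved it to -0.141 between AngioTag IP and FACS sorted, and to -0.114, with 409 higher and 1371 lower, for AngioTag minus FACS enrichment. The levels of tek and ptprb in FACS total and RiboTag input moved by over 1 SD with raw library totals (tek to 5.008 and 7.848 CPM, ptprb to 5.106 and 6.237 CPM).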
